A study of Mus musculus with 12 samples.

Results

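The respiratory chain of endometrial F4/80-positive cells was followed through 103 genes of the deposited expression table. They were chosen by symbol: the mitochondrially encoded mt-Nd, mt-Co, mt-Atp and mt-Cytb genes, and the nuclear genes whose symbols start with Nduf, Uqcr, Atp5 or Cox4 to Cox8 or are Sdha, Sdhb, Sdhc or Sdhd. Of 108 matching entries among 22294 genes, 103 reached an FPKM (a read level per length of transcript and per mapped fragment of its library) of at least 1 in at least 3 of 12 libraries. The set holds 13 mitochondrially encoded genes and 90 nuclear genes, and it is part of the 11604 genes that passed the same limit. By complex, the nuclear genes comprise 45 of complex I, 4 of complex II, 8 of complex III, 16 of complex IV and 17 of complex V. Among these 90 are 9 factors that assemble or link complexes rather than form part of them, namely 8 Ndufaf genes and Cox7a2l.

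Messenger RNA was selected by its poly(A) tail and sequenced from cells that were digested out of mouse endometrium and pulled down with F4/80 magnetic beads. F4/80 is a surface protein of macrophages, the tissue phagocytes. The Sham group had a sham operation. The IUA modeling group had induced intrauterine adhesion, a scarring that joins the uterine walls, and its libraries are named Matrigel. The IUA+control MSCs group had the model and control mesenchymal stromal cells from human umbilical cord, and the IUA+primed MSCs group had the model and the same kind of cells primed with inflammatory cytokines. These groups are written Sham, IUA, control MSC and primed MSC, with 3 libraries each. Strain and age are not given in the labels, nor whether each library is a separate animal, so p-values measure the spread between these libraries, which may be technical. The labels also do not say whether Matrigel was given to any group other than IUA.

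The chain passes electrons from NADH (complex I) or succinate (complex II) through complex III to oxygen at complex IV. Complexes I, III and IV pump protons, and complex V, the ATP synthase, uses the gradient to make ATP. Core membrane subunits of complexes I, III, IV and V are encoded in mitochondrial DNA, which is transcribed as long polycistronic RNAs that are then cut. All of complex II and the other subunits are nuclear, so assembly needs both genomes. In macrophages, resting and repair states are known to rely on respiration more than classical inflammatory activation does.

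The mitochondrial genes lie close together. On mm10 (GENCODE annotation) mt-Nd1 spans chrM:2751-3707, mt-Co1 chrM:5328-6872, mt-Atp6 chrM:7927-8607, mt-Co3 chrM:8607-9390 and mt-Cytb chrM:14145-15288, all on the plus strand. The reading frames of mt-Atp8 and mt-Atp6 overlap by 43 bases, and a fragment from there belongs to both genes. The overlap is shown because it limits how far the values of these genes can be separated. Capitals mark the start codon of mt-Atp6 and the stop codon of mt-Atp8, on the plus strand at chrM:7927-7969.

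mt-Atp8 and mt-Atp6 overlap: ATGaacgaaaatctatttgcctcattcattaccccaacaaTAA

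The frames of mt-Nd4l and mt-Nd4 share 7 bases. The coding region of mt-Nd6 lies on the minus strand at chrM:13552-14070 and its end overlaps that of mt-Nd5 on the plus strand. The protocol in the labels describes no step that marks the strand, so fragments of mt-Nd6 and of RNA antisense to it cannot be told apart.

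Nuclear genes of the chain are known targets of the factors NRF1, GABPA, YY1 and the estrogen-related receptors (ERR). Promoters (250 bases before to 50 after the start, RefSeq GRCm38.p6) were found for 75 of the 90 nuclear members. A match to the NRF1 motif, on either strand, stood in 13 of them, 17.3%, against 3.13% of the promoters of 27025 genes. YY1 (AANATGGCG, either strand here and for the next motifs) matched in 11, 14.7% against 2.76%. GABPA (CCGGAAGT) matched in 5, 6.67% against 4.31%, and ERR (TCAAGGTCA) in 2, 2.67% against 0.466%. A match describes letters in the window and not a bound site. The promoters of 4 members are printed because their genes recur in the results: Ndufa4, with the largest falls against Sham among these 4, Ndufb11, which fell in 4 comparisons, and Atp5b and Sdha, catalytic subunits. Capitals mark matches. The coordinates are chr6:11907401-11907700 on the minus strand for Ndufa4, chrX:20617570-20617869 on the minus strand for Ndufb11, chr10:128083057-128083356 on the plus strand for Atp5b and chr13:74350191-74350490 on the minus strand for Sdha.
Ndufa4: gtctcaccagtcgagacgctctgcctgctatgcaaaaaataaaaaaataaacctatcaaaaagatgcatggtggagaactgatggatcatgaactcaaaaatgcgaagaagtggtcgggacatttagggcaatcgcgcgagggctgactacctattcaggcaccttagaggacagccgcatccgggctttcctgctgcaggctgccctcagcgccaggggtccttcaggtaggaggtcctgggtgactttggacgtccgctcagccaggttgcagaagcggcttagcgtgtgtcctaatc
Ndufb11: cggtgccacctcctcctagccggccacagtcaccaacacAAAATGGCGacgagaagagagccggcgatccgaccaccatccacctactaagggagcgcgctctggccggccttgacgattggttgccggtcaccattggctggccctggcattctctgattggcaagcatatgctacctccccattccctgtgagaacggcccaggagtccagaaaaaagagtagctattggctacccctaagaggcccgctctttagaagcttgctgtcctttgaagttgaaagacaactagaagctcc
Atp5b: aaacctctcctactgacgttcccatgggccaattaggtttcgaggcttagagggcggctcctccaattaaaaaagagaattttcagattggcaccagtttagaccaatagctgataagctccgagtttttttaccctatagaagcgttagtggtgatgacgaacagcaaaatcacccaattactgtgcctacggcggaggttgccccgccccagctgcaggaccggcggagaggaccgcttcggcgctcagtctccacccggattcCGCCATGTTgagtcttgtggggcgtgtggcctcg
Sdha: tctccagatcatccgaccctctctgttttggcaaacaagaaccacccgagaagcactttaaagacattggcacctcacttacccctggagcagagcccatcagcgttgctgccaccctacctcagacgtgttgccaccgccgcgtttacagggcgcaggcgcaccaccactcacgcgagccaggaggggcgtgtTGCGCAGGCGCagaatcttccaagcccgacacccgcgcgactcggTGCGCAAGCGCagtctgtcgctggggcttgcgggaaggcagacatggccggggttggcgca
The Sdha promoter held 2 NRF1 matches, those of Ndufb11 and Atp5b held 1 YY1 match each, and that of Ndufa4 held none of the letters searched.

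Library sums of FPKM lay between 505459.9 and 563751, and the sequencing depth is unknown. Summed FPKM of 12 macrophage markers ranged from 11055 to 13557 in Sham and from 32515 to 36646 in the other 9 libraries, and none of the 12 was at 0 in any group. Summed FPKM of 16 uterine epithelium markers ranged from 8285 to 14439.5 in Sham, 1973 to 5919 in IUA, 2225 to 5136 with control MSC and 1914 to 3785 with primed MSC. Endothelium markers moved the same way, from 257 to 469.9 in Sham and from 101 to 174 elsewhere, as did 8 smooth muscle markers, from 388 to 1370 in Sham and from 101 to 357 elsewhere. The 8 stroma markers summed to 478 to 932 in Sham and 293 to 938 in IUA, and to 149 to 266 with control MSC and 120 to 255 with primed MSC. Neutrophil markers (8) ran the other way, from 15.3 to 21.6 in Sham and from 70.0 to 230 elsewhere. The epithelial keratins Krt8 and Krt18 together took 1.20 to 2.13% of FPKM in Sham and 0.203 to 0.744% in the other groups. Every comparison with Sham below carries these differences in cell content, and their part in the results was not tested.

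Mitochondrially encoded messages were among the most abundant in these cells, and Sham carried more of them than the other groups. The 13 genes took 3.76, 3.64 and 3.83% of FPKM in Sham (3.75 ± 0.0971, SD, n = 3), 2.57, 2.74 and 3.26% in IUA (2.86 ± 0.362), 2.72, 2.11 and 2.63% with control MSC (2.48 ± 0.330) and 1.92, 1.96 and 2.22% with primed MSC (2.03 ± 0.164). All Sham libraries lay above all others, and all primed MSC libraries lay below all IUA libraries but overlapped those with control MSC. The 90 nuclear genes took 1.85, 1.76 and 1.66% in Sham (1.76 ± 0.0945), 1.13, 1.41 and 1.38% in IUA (1.31 ± 0.154), 1.35, 1.31 and 1.36% with control MSC (1.34 ± 0.0306) and 1.15, 1.22 and 1.25% with primed MSC (1.21 ± 0.0540). Sham again stood above the rest. IUA overlapped both MSC groups, and all primed MSC libraries lay below all control MSC libraries. In these bulk samples, fewer cells of a type and less RNA per cell cannot be told apart.

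The ratio of mitochondrially encoded to nuclear FPKM does not depend on how a library is scaled. It was 2.03, 2.07 and 2.31 in Sham (2.14 ± 0.150, n = 3), 2.27, 1.94 and 2.37 in IUA (2.19 ± 0.223), 2.01, 1.61 and 1.93 with control MSC (1.85 ± 0.210) and 1.68, 1.61 and 1.77 with primed MSC (1.69 ± 0.0840). Sham and IUA overlapped. The primed MSC libraries lay below every Sham and every IUA library, and the control MSC libraries spanned the gap. The ratio was not corrected for the GC content of transcripts. Under such a correction, the median change of mitochondrially encoded minus that of nuclear members went from −0.35 to 0.00 in primed MSC against IUA. In primed MSC against Sham that difference went from −0.42 to −0.43. With 3 libraries against 3, an exact two-sided permutation test cannot give a p below 0.1, so no p is given for these sums.

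**Figure D1:**
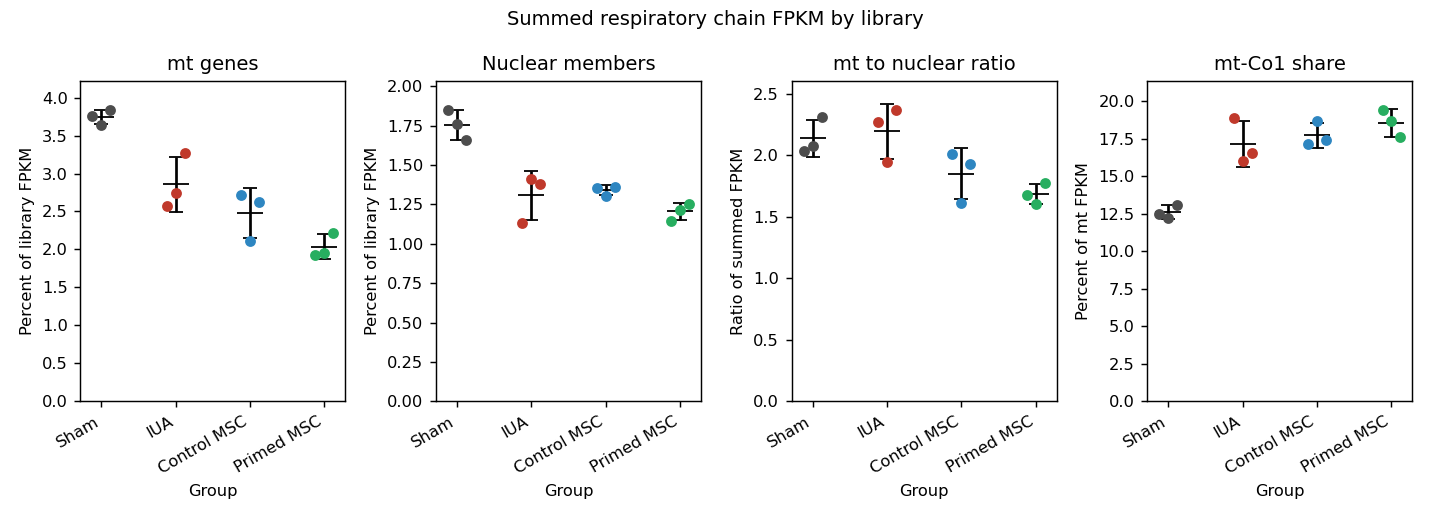
Share of library FPKM in the 13 mitochondrially encoded and the 90 nuclear members (percent), their ratio, and the share of mt-Co1 within mitochondrially encoded FPKM (percent), by group; points are libraries and bars are the mean ± SD of 3. Both shares are highest in Sham, the ratio is lowest with primed MSC (1.69 ± 0.0840), and the mt-Co1 share is lowest in Sham (12.6 ± 0.462%). The values are not corrected for the GC content of transcripts.

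Per kilobase of transcript, the 13 genes fell into a steep order that was nearly the same in every group. In Sham, mean FPKM was 5747 for mt-Atp6 and 5667 for mt-Cytb, then 2429 for mt-Co1, 2027 for mt-Co3, 1466 for mt-Nd1 and 858 for mt-Co2. These 6 genes held 93.8 to 95.2% of mitochondrially encoded FPKM in every library. mt-Nd4 (453), mt-Nd2 (206), mt-Atp8 (168), mt-Nd5 (126), mt-Nd4l (54.9), mt-Nd6 (31.9) and mt-Nd3 (19.3) followed. The Sham libraries of mt-Atp6 (5393 to 6012) and mt-Cytb (5591 to 5749) overlapped, so that step of the order lies within the spread, as does that from mt-Atp8 (108 to 237) to mt-Nd5 (124 to 128). The FPKM of neighbouring genes thus differed widely on this scale, where transcript length and capture by the poly(A) tail enter too. The frames of mt-Atp8 and mt-Atp6 overlap, as do those of mt-Nd4l and mt-Nd4. Their FPKM therefore need not be levels of separate messages. Near-identical copies elsewhere in the genome (at least 95% identity over at least 50% of the transcript) exist for 8 of the 13, among them mt-Atp6 and mt-Co1 to mt-Co3, and none of these copies is an entry of the table. How the authors' counting divided reads between gene and copy is not given in the sources used here, so the levels of those 8 are uncertain.

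The ATP synthase genes mt-Atp6 and mt-Atp8, whose reading frames overlap, encode subunits a and A6L of its membrane part. mt-Atp6 measured 6012, 5393 and 5835 FPKM in Sham, 4203, 4527 and 5538 in IUA, 4235, 3253 and 4249.6 with control MSC, and 2854, 3051 and 3579.5 with primed MSC. mt-Atp8 measured 237, 160.2 and 108 in Sham, 122, 130.4 and 157 in IUA, 119, 84.6 and 122 with control MSC, and 59.1, 74.3 and 78.3 with primed MSC. Both had their lowest mean with primed MSC, and the Sham libraries of mt-Atp8 overlapped those of IUA and control MSC.

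Cytochrome b, the quinol-oxidising core of complex III, is encoded by mt-Cytb. It measured 5749, 5660.4 and 5591 FPKM in Sham, 3742, 4229 and 5299 in IUA, 3769.9, 2806 and 3859 with control MSC, and 2467, 2543 and 2819 with primed MSC. No Sham library was reached by any other, and IUA replicate 3 stood well above the other 2 IUA libraries.

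Complex IV takes its core subunits from mt-Co1, mt-Co2 and mt-Co3. mt-Co1, which binds the haems where oxygen is reduced, measured 2476, 2267 and 2544 FPKM in Sham, 2694, 2418 and 3047 in IUA, 2549, 2182 and 2546 with control MSC, and 1988, 1965 and 2088 with primed MSC. mt-Co2, which accepts electrons from cytochrome c, measured 892, 823 and 857 in Sham, 669, 673 and 826 in IUA, 819, 679 and 741 with control MSC, and 499, 529 and 581 with primed MSC. mt-Co3 measured 2024, 1891 and 2166 in Sham, 1364, 1409 and 1621 in IUA, 1577, 1269.6 and 1481 with control MSC, and 1203, 1183 and 1320.4 with primed MSC. Sham libraries of mt-Co3 stood apart from all others, whereas those of mt-Co1 lay within the range of IUA and control MSC.

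The 7 mt-Nd genes encode the membrane arm of complex I. mt-Nd1 measured 1449.7, 1494 and 1454 FPKM in Sham, 809, 999.55 and 1068 in IUA, 1045, 807 and 946 with control MSC, and 713, 719.9 and 860.03 with primed MSC. mt-Nd4 measured 488, 434 and 438 in Sham, 326, 368 and 424 in IUA, 380.5, 290.03 and 343 with control MSC, and 238, 233 and 287 with primed MSC. mt-Nd2 measured 239, 196 and 185 in Sham, 151, 168 and 209.8 in IUA, 161, 128 and 163 with control MSC, and 97.0, 109 and 117 with primed MSC. All 3 were highest in Sham by their means, and for mt-Nd1 and mt-Nd4 no other library reached Sham. mt-Nd5 measured 124, 128 and 126 in Sham, 94.9, 97.5 and 123 in IUA, 113, 83.2 and 98.3 with control MSC, and 71.4, 69.6 and 80.2 with primed MSC. mt-Nd4l measured 72.8, 57.0 and 34.9 in Sham, 27.1, 38.4 and 41.8 in IUA, 45.8, 42.6 and 43.6 with control MSC, and 26.0, 23.2 and 34.8 with primed MSC. The Sham libraries of mt-Nd4l overlapped both IUA and control MSC. mt-Nd6 measured 39.9, 28.8 and 27.1 in Sham, 20.1, 25.1 and 33.8 in IUA, 26.1, 21.4 and 25.0 with control MSC, and 16.5, 14.4 and 16.3 with primed MSC. mt-Nd3 measured 23.7, 17.2 and 17.0 in Sham, 13.4, 12.3 and 13.2 in IUA, 16.7, 14.7 and 12.1 with control MSC, and 5.58, 9.47 and 8.63 with primed MSC. For both genes the primed MSC libraries lay below all libraries of the other groups.

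**Figure D2:**
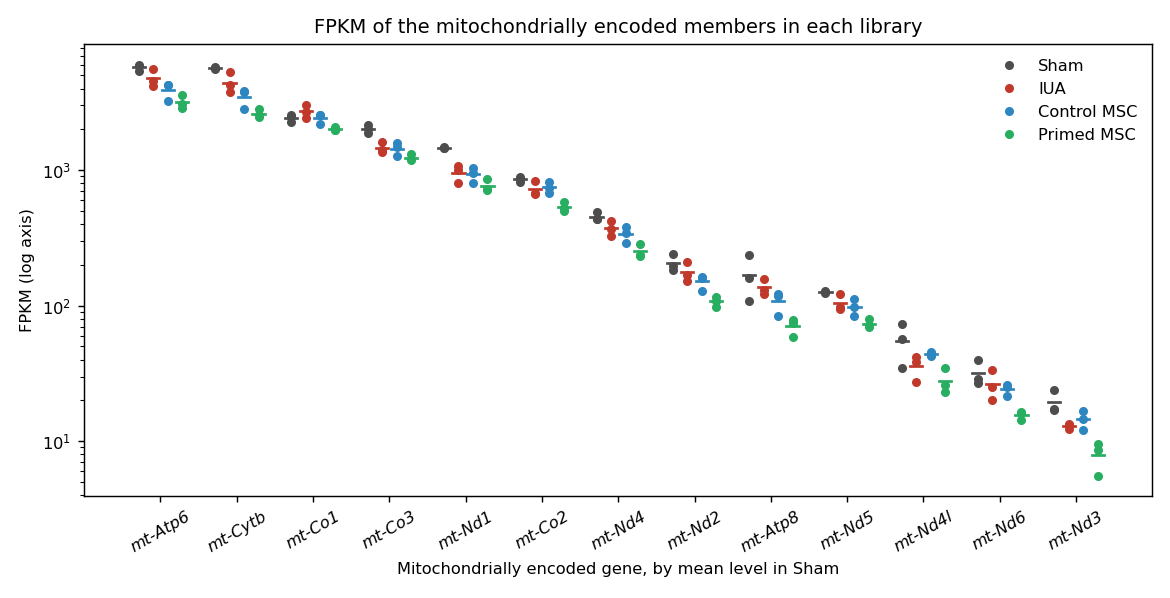
FPKM (log axis) of each of the 13 mitochondrially encoded genes in every library, by group, with the group mean as a bar. Genes are spread over more than 2 powers of 10, from means of 5747 for mt-Atp6 to 19.3 for mt-Nd3 in Sham, and primed MSC has the lowest mean for all 13.

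Within the mitochondrial messages, mt-Co1 made up a smaller part in Sham than in any IUA group. It took 12.5, 12.2 and 13.1% of mitochondrially encoded FPKM in Sham (12.6 ± 0.462), 18.9, 16.0 and 16.6% in IUA (17.2 ± 1.55), 17.2, 18.7 and 17.4% with control MSC (17.8 ± 0.834) and 19.4, 18.7 and 17.6% with primed MSC (18.6 ± 0.918). The 3 IUA groups overlapped one another and none overlapped Sham. Set against mt-Co3, its fellow subunit, mt-Co1 had a mean ratio of 1.20 in Sham (1.17 to 1.22), 1.86 in IUA (1.72 to 1.98), 1.68 with control MSC (1.62 to 1.72) and 1.63 with primed MSC (1.58 to 1.66). The share of mt-Cytb ran the other way, at 29.5 ± 0.924% in Sham, 27.7 ± 1.28% in IUA, 25.3 ± 1.16% with control MSC and 24.0 ± 0.225% with primed MSC. mt-Atp6 held a near constant share, with group means from 28.5 to 29.9%. mt-Co1 and mt-Co3 both have near-identical copies elsewhere in the genome, and the part of those copies in these ratios was not tested.

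In IUA against Sham, messages of the chain were lower, but about as much as those of other genes. Among nuclear members 43 of 90 fell and 1 rose, and among mitochondrially encoded genes 3 of 13 fell and none rose. Over all 11604 genes tested, 45.0% fell and 11.1% rose. Changes are differences of log2(FPKM + 1), which understates the change of low genes, and a gene is said to rise or fall where the Benjamini-Hochberg adjusted p of limma over all 11604 genes was under 0.05. The median change was −0.33 for the nuclear members, −0.28 for the mitochondrially encoded genes and −0.35 for all genes, so relative to all genes the medians were 0.02 and 0.07. Where libraries were scaled so that the typical gene did not move (median-ratio scaling, which brings the median of all genes to −0.01), 3 nuclear members fell and 14 rose, mt-Co1 alone of the 13 rose, and 22.2% of all genes fell and 22.9% rose. After correction of each library for the GC content of transcripts, 5 nuclear members fell and 13 rose, 3 mitochondrially encoded genes fell, and 21.9% of all genes fell and 22.9% rose. The nuclear count was 27 without Sham replicate 1 and 23 without IUA replicate 1, and 8 mitochondrially encoded genes fell without IUA replicate 3. Of all 11604 genes, 4775, 4751 and 4872 fell in those fits, in that order, against 5226 with all libraries.

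**Figure D3:**
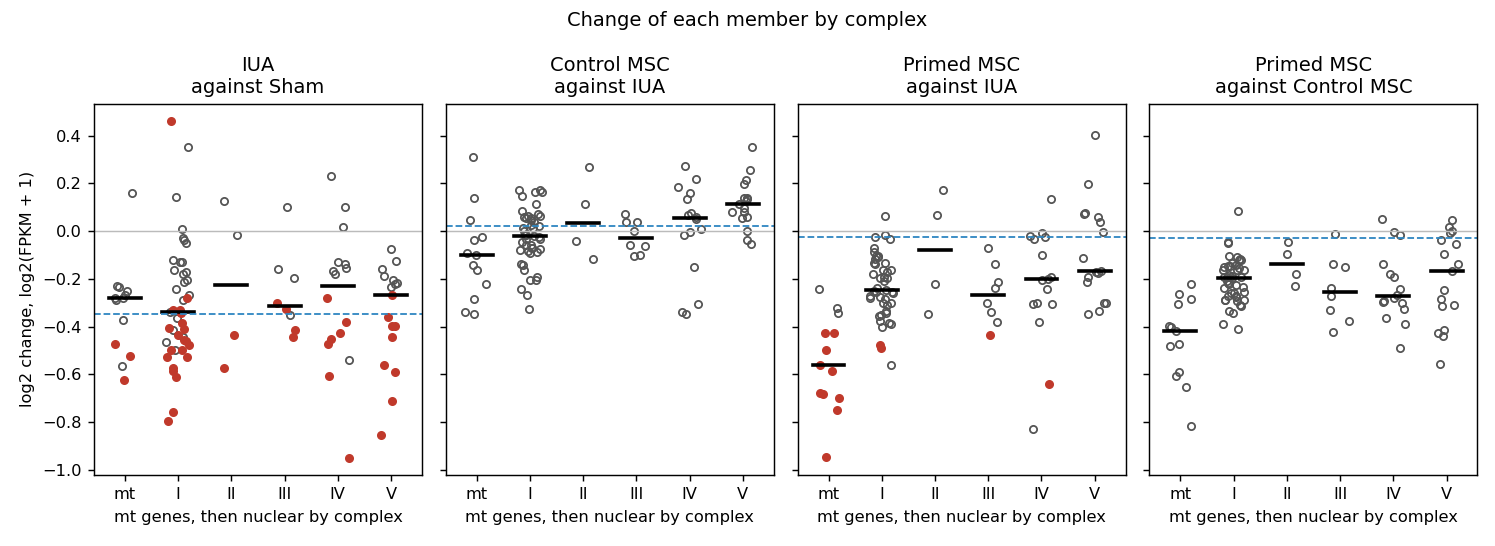
Change of each member, as a difference of log2(FPKM + 1), by complex and genome for each comparison; filled red points passed limma's adjusted p of 0.05, open points did not, black bars are medians and the blue dashed line is the median of all 11604 genes. Against Sham the complexes lie around the blue line at −0.35 for IUA, whereas with primed MSC against IUA the mitochondrially encoded genes lie at a median of −0.56 and the line at −0.03.

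By complex, falls in IUA against Sham numbered 21 of 45 for nuclear complex I, 2 of 4 for complex II, 4 of 8 for complex III, 7 of 16 for complex IV and 9 of 17 for complex V. Median changes ran from −0.34 for complex I to −0.23 for complexes II and IV. Subunits classed as core, not all of which carry a cofactor or a catalytic site, fell in 12 of 20 cases, and accessory subunits in 26 of 57. Of all genes 45.0% fell, and their median change was −0.35.

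In the mitochondrial genome the falls in IUA against Sham were those of mt-Nd1 (−0.62 ± 0.13, SE, adjusted p = 0.00181), mt-Co3 (−0.47 ± 0.11, adjusted p = 0.00382) and mt-Nd3 (−0.52 ± 0.19, adjusted p = 0.0311). For these 3 genes no IUA library reached a Sham library. Median-ratio scaling ended all 3 calls. mt-Cytb stood at −0.37 (adjusted p = 0.0505) and mt-Atp6 at −0.28 (adjusted p = 0.115). mt-Co1 differed in sign, at 0.16 ± 0.11 (adjusted p = 0.239), and rose by 0.57 under median-ratio scaling (adjusted p = 0.00309).

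**Figure D4:**
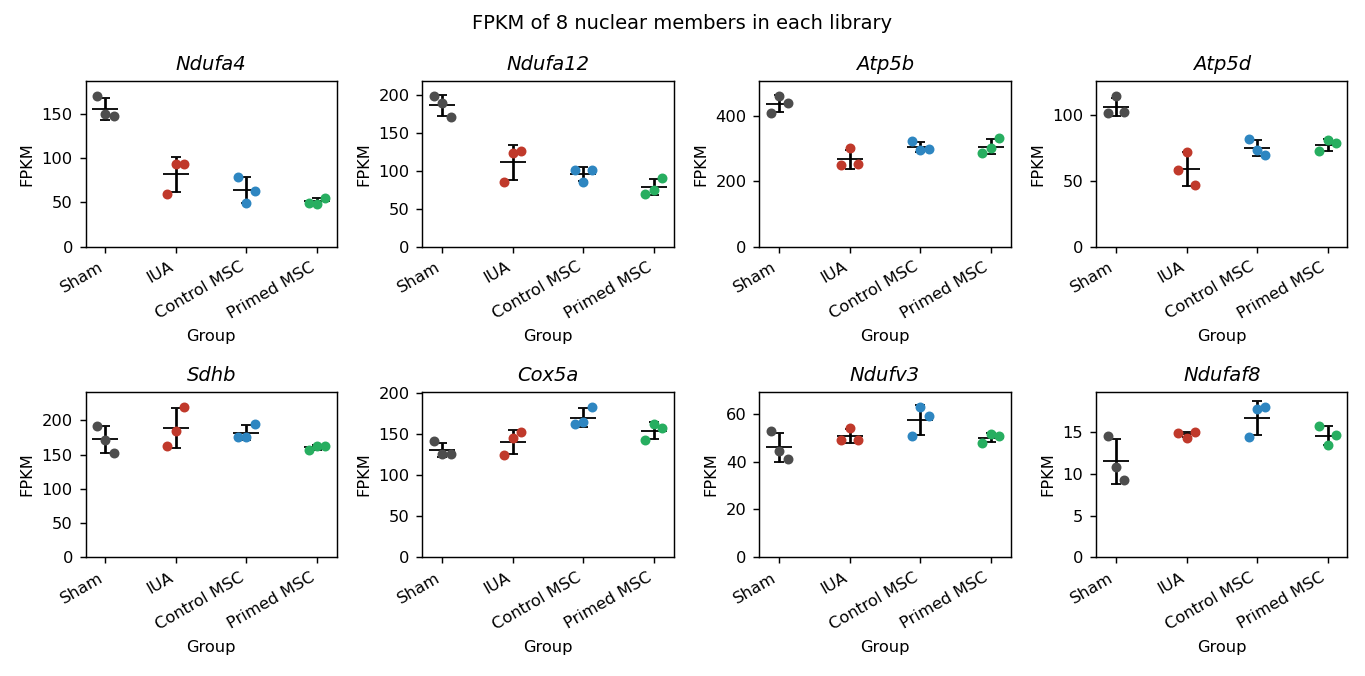
FPKM of selected nuclear members in every library, by group; points are libraries and bars are the mean ± SD of 3. Ndufa4 is highest in the 3 Sham libraries (148 to 171) and lowest with primed MSC (48.6 to 55.1).

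Nuclear complex I is led by its flavin and iron-sulfur subunits. Ndufv1, which binds NADH, measured 47.6, 50.02 and 47.5 FPKM in Sham, 27.4, 38.9 and 30.3 in IUA, 31.6, 29.0 and 31.1 with control MSC, and 28.8, 28.4 and 31.5 with primed MSC. It fell in IUA against Sham, by 0.59 ± 0.12 (adjusted p = 0.00158), with all Sham libraries above all IUA libraries. Ndufs1, the largest iron-sulfur subunit, measured 25.8, 27.7 and 28.1 in Sham, 20.4, 20.1 and 20.4 in IUA, 22.9, 18.5 and 20.8 with control MSC, and 16.8, 18.1 and 21.7 with primed MSC. Ndufv2 measured 97.9, 81.9 and 81.4 in Sham, 60.4, 71.0 and 76.0 in IUA, 64.8, 66.7 and 79.0 with control MSC, and 54.3, 59.9 and 58.6 with primed MSC. Their falls were 0.40 ± 0.11 (adjusted p = 0.0104) and 0.33 ± 0.12 (adjusted p = 0.0319), and Sham overlapped no other group for either gene. Under median-ratio scaling none of these 3 was called, and Ndufv2 turned to 0.07.

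Among the subunits of complex I, the accessory Ndufa12 had the largest fall. Ndufa12 measured 198, 189.8 and 171 FPKM in Sham, 84.9, 123 and 127 in IUA, 101, 85.2 and 101 with control MSC, and 69.9, 74.6 and 90.5 with primed MSC. Ndufb9 measured 122, 113 and 108 in Sham, 61.2, 81.8 and 82.2 in IUA, 78.5, 65.8 and 77.0 with control MSC, and 62.7, 64.3 and 66.1 with primed MSC. Ndufb11 measured 104, 95.9 and 79.6 in Sham, 52.4, 68.3 and 65.9 in IUA, 55.2, 52.0 and 53.5 with control MSC, and 44.9, 44.4 and 43.2 with primed MSC. Against Sham, IUA was lower by −0.76 ± 0.15 for Ndufa12 (adjusted p = 0.00152), −0.61 ± 0.12 for Ndufb9 (adjusted p = 0.00133) and −0.57 ± 0.12 for Ndufb11 (adjusted p = 0.00186), with no overlap. The assembly factor Ndufaf6 fell further, by 0.79 ± 0.20 (adjusted p = 0.00513), at low levels of 4.37 to 7.71 in Sham and 2.64 to 3.73 in IUA. Ndufb1-ps was the nuclear member that rose, with 17.0, 13.3 and 11.9 in Sham, 18.7, 21.2 and 18.7 in IUA, 15.0, 21.8 and 19.1 with control MSC, and 17.1, 13.3 and 16.9 with primed MSC (0.46 ± 0.16, adjusted p = 0.0289). Median-ratio scaling left Ndufaf6 and Ndufa12 at −0.46 and −0.35, neither called, and raised Ndufb1-ps to 0.84.

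Complex II, succinate dehydrogenase, split by subunit. Sdha, the flavin subunit, measured 93.3, 96.8 and 93.2 FPKM in Sham, 65.9, 72.3 and 70.6 in IUA, 75.7, 72.5 and 77.8 with control MSC, and 69.7, 72.8 and 76.1 with primed MSC. Sdhc, a membrane anchor, measured 50.2, 53.8 and 48.4 in Sham, 33.7, 35.0 and 32.5 in IUA, 39.7, 43.5 and 39.4 with control MSC, and 34.8, 41.4 and 38.5 with primed MSC. Both fell in IUA against Sham, Sdha by 0.44 ± 0.08 (adjusted p = 9.10e-04) and Sdhc by 0.57 ± 0.09 (adjusted p = 4.82e-04), with all Sham libraries above the rest. Sdhb, the iron-sulfur subunit, measured 192, 172 and 153 in Sham, 162, 184 and 219.7 in IUA, 176, 175 and 194 with control MSC, and 157, 163 and 162 with primed MSC. Sdhd, the other anchor, measured 106, 121 and 94.3 in Sham, 93.6, 114 and 110.3 in IUA, 96.7, 88.4 and 107 with control MSC, and 82.6, 79.7 and 86.0 with primed MSC. Neither was called in IUA against Sham, at 0.13 ± 0.12 (adjusted p = 0.382) and −0.02 ± 0.12 (adjusted p = 0.920), and Sham overlapped IUA for both. Under median-ratio scaling the positions changed, with Sdhb and Sdhd called higher by 0.53 and 0.39 and Sdha and Sdhc at −0.03 and −0.18, not called.

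In nuclear complex III, the Rieske iron-sulfur protein Uqcrfs1 measured 101, 118 and 106 FPKM in Sham, 78.2, 95.8 and 90.0 in IUA, 89.3, 78.8 and 84.7 with control MSC, and 80.7, 85.0 and 84.6 with primed MSC. The core protein Uqcrc1 measured 241, 257 and 244 in Sham, 209, 232 and 223 in IUA, 225, 209.9 and 230.1 with control MSC, and 193, 199.8 and 211 with primed MSC. Uqcrfs1 fell in IUA by 0.30 ± 0.10 (adjusted p = 0.0235), a change that became 0.11 under median-ratio scaling, and Uqcrc1 was not called at −0.16 (adjusted p = 0.117). Its partner Uqcrc2 measured 51.6, 50.8 and 54.0 in Sham, 32.7, 41.5 and 40.7 in IUA, 39.6, 32.4 and 37.8 with control MSC, and 28.8, 33.4 and 36.4 with primed MSC. The hinge protein Uqcrh measured 144, 134 and 118 in Sham, 81.5, 105 and 111 in IUA, 97.2, 90.0 and 88.2 with control MSC, and 71.7, 82.3 and 79.1 with primed MSC. These fell in IUA by 0.44 ± 0.12 (adjusted p = 0.00943) and 0.41 ± 0.12 (adjusted p = 0.0130), and stood at −0.04 and −0.01 under median-ratio scaling.

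Ndufa4, named for complex I but a subunit of complex IV, had the largest fall of the set in IUA against Sham. It measured 171, 150.4 and 148 FPKM in Sham, 59.3, 93.5 and 93.1 in IUA, 79.0, 49.9 and 63.0 with control MSC, and 49.8, 48.6 and 55.1 with primed MSC. Its fall was 0.95 ± 0.19 (adjusted p = 0.00126), still called under median-ratio scaling at −0.54 (adjusted p = 0.0194) and after correction for transcript GC content at −0.76 (adjusted p = 0.00297). Cox4i1, a core-contacting subunit, measured 439, 455 and 458 in Sham, 282, 377 and 353 in IUA, 362, 319 and 313 with control MSC, and 311, 335 and 337 with primed MSC. Cox5a, which sits beside it, measured 141, 126 and 126 in Sham, 124, 146 and 153 in IUA, 162, 165 and 184 with control MSC, and 144, 163 and 157 with primed MSC. Cox4i1 fell by 0.43 ± 0.11 (adjusted p = 0.00619), whereas Cox5a stood at 0.10 ± 0.10 (adjusted p = 0.411). Cox7a2l, which links complexes into supercomplexes, measured 156, 224 and 223 in Sham, 104, 152 and 138 in IUA, 127, 89.2 and 102 with control MSC, and 99.9, 112 and 103 with primed MSC. It fell by 0.61 ± 0.18 in IUA (adjusted p = 0.0121), and its lowest Sham library lay just above its highest IUA library.

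The catalytic head of the ATP synthase is formed by the products of Atp5a1, Atp5b and smaller subunits such as Atp5d. Atp5b measured 409, 459.7 and 439 FPKM in Sham, 248, 301 and 251 in IUA, 322, 295 and 297 with control MSC, and 285, 301 and 331 with primed MSC. Atp5a1 measured 175, 186 and 185 in Sham, 115, 133 and 123 in IUA, 138, 118 and 130.5 with control MSC, and 122, 131 and 137 with primed MSC. Atp5d measured 101, 114 and 102 in Sham, 58.4, 72.0 and 46.6 in IUA, 81.5, 73.2 and 69.5 with control MSC, and 72.1, 80.7 and 78.8 with primed MSC. All Sham libraries stood above all others for these genes. The falls in IUA were 0.71 ± 0.10 for Atp5b (adjusted p = 2.30e-04), 0.56 ± 0.09 for Atp5a1 (adjusted p = 5.04e-04) and 0.85 ± 0.14 for Atp5d (adjusted p = 4.34e-04). Under median-ratio scaling Atp5b and Atp5d, at −0.30 and −0.45, together with Ndufa4, were the 3 nuclear members that still fell, and Atp5a1 was at −0.15, not called.

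Most subunits with tissue isoforms were expressed in the common form. Cox4i2 took 0.149 to 0.634% of its pair with Cox4i1 in every library. It measured 2.80, 2.82 and 0.99 FPKM in Sham, 1.69, 1.13 and 0.64 in IUA, 0.54, 0.89 and 1.36 with control MSC, and 1.16, 1.08 and 0.70 with primed MSC. Cox6a1 measured 268, 225 and 220.1 in Sham, 174, 197 and 216 in IUA, 217, 236 and 229 with control MSC, and 182, 196 and 199 with primed MSC, while its muscle form Cox6a2 stayed between 0.08 and 0.53, below the limit. Cox6b1 measured 254, 211 and 207 in Sham, 173, 213 and 206 in IUA, 209.6, 222 and 228 with control MSC, and 190.2, 187 and 203 with primed MSC. Cox6a1 fell in IUA against Sham by 0.28 ± 0.11 (adjusted p = 0.0387), and Cox6b1 was not called (−0.18, adjusted p = 0.168). Cox6b2, the testis form and the member nearest the limit, reached 1 FPKM in 4 libraries, with 2.22, 1.10 and 1.26 in Sham, 0.84, 0.88 and 0.66 in IUA, 0.88, 0.65 and 1.10 with control MSC, and 0.31, 0.60 and 0.46 with primed MSC. Ndufaf4, also near the limit, ranged from 0.98 to 4.29. Cox8b, Cox8c, Cox7b2 and a second Atp5o entry were listed at 0 in every library and did not enter the set.

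Cox7a2, the common form of that subunit, measured 107, 88.5 and 79.8 FPKM in Sham, 70.7, 85.6 and 90.6 in IUA, 84.3, 83.8 and 89.2 with control MSC, and 69.3, 72.3 and 71.7 with primed MSC. Its muscle form Cox7a1 measured 3.77, 4.19 and 1.67 in Sham, 2.14, 5.44 and 4.29 in IUA, 2.41, 3.49 and 2.47 with control MSC, and 1.39, 1.61 and 2.07 with primed MSC. Cox7a1 thus made up 3.32, 4.48, 3.16 and 2.32% of the pair on average in the same order of groups. Ndufa4l2, a hypoxia-inducible relative of Ndufa4, measured 3.54, 4.34 and 0.49 in Sham, 1.68, 4.22 and 1.68 in IUA, 2.42, 2.44 and 2.56 with control MSC, and 1.33, 2.21 and 2.02 with primed MSC. Cox8a measured 201, 178 and 157 in Sham, 119, 155 and 137 in IUA, 154, 160.4 and 151 with control MSC, and 128, 142 and 137 with primed MSC. Sham and IUA overlapped for Cox7a1 and Ndufa4l2 and stood apart for Cox8a, which fell by 0.38 ± 0.12 (adjusted p = 0.0145).

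Atp5g1, Atp5g2 and Atp5g3 encode the same mature c subunit that forms the rotor ring of the ATP synthase. Atp5g1 measured 165, 142 and 133 FPKM in Sham, 93.2, 126 and 125 in IUA, 119, 120.1 and 122 with control MSC, and 93.2, 102 and 109.7 with primed MSC. Atp5g2 measured 52.3, 52.9 and 47.4 in Sham, 39.97, 44.8 and 47.5 in IUA, 49.3, 44.8 and 47.3 with control MSC, and 43.8, 48.1 and 46.0 with primed MSC. Atp5g3 measured 111, 108 and 119 in Sham, 66.5, 79.1 and 78.6 in IUA, 89.3, 78.5 and 78.4 with control MSC, and 75.1, 76.5 and 78.0 with primed MSC. Atp5g1 and Atp5g3 stood apart from IUA in Sham and fell by 0.36 ± 0.13 (adjusted p = 0.0304) and 0.59 ± 0.10 (adjusted p = 4.43e-04), and Atp5g2 did not (−0.20, adjusted p = 0.0870). Of the summed FPKM of the 3 genes, Atp5g1 held means of 47.2% in Sham, 49.0% in IUA, 48.2% with control MSC and 45.3% with primed MSC, and the groups overlapped Sham. The share of Atp5g2 was lowest in Sham, at 15.8 to 17.5%, against 17.9 to 20.0% in IUA, 18.4 to 19.1% with control MSC and 19.7 to 21.2% with primed MSC, none of which overlapped Sham. The share of Atp5g3 was 33.8 to 39.7% in Sham and 31.3 to 33.3% in IUA. It was 31.7 to 34.7% with control MSC and 33.4 to 35.4% with primed MSC, and both overlapped Sham.

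Control MSC against IUA sets the model given unprimed cells beside the model without them. No member was called by limma, where 0.724% of all genes rose and 0.129% fell. At an unadjusted p under 0.05 the mitochondrially encoded genes gave 1 lower, mt-Cytb (−0.35 ± 0.15, adjusted p = 0.239). The nuclear members gave 3 higher: Sdhc (0.27, adjusted p = 0.170), Cox5a (0.27, adjusted p = 0.191) and Atp5d (0.35, adjusted p = 0.202). At that unadjusted threshold 6.45% of all genes were lower and 12.4% higher, so 1 of 13 lower and 3 of 90 higher stand near and below the shares of all genes. Medians were −0.10 for the mitochondrially encoded genes, 0.02 for the nuclear members and 0.02 for all genes. The libraries of the groups were apart for Sdhc and Cox5a and overlapped for mt-Cytb and Atp5d.

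With primed MSC against IUA, mitochondrially encoded messages were lower and nuclear messages of the chain mostly not called. Of the 13 genes 10 fell, all but mt-Co3, mt-Nd1 and mt-Nd4l, where 6.97% of all genes fell and 12.2% rose. Of 90 nuclear members 4 fell and none rose. Median changes were −0.56 for the mitochondrially encoded genes, −0.21 for the nuclear members and −0.03 for all genes. Under median-ratio scaling 10 mitochondrially encoded genes again fell, with 6 nuclear members lower and 1 higher, where 7.49% of all genes fell and 13.1% rose. In the same comparison none of 16 epithelium markers and 2 of 10 endothelium markers fell, and 5 of 12 macrophage markers rose. Of 8 stroma markers 2 fell (median −0.59), both eosinophil markers tested fell, and of 7 neutrophil markers tested 2 fell and 1 rose. None of 8 smooth muscle markers (median −0.61) and none of 2 T and NK markers tested (median −0.59) was called. The part of these cells in the result was not tested.

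The largest of these falls was that of mt-Atp8, by 0.94 ± 0.24 (adjusted p = 0.0195). mt-Cytb fell by 0.75 ± 0.15 (adjusted p = 0.00655), mt-Nd2 by 0.70 ± 0.15 (adjusted p = 0.00819) and mt-Atp6 by 0.59 ± 0.14 (adjusted p = 0.0169). mt-Co1, not called in IUA against Sham, fell by 0.43 ± 0.11 (adjusted p = 0.0206). For all 10 genes that fell, and for mt-Co3, the primed MSC libraries lay below the IUA libraries, which makes 11 of 13 against 17.4% of all genes. The 3 genes not called had changes of −0.24 for mt-Co3 (adjusted p = 0.143), −0.32 for mt-Nd1 (adjusted p = 0.0999) and −0.34 for mt-Nd4l (adjusted p = 0.332).

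The nuclear members that fell were Ndufa4 (−0.64 ± 0.19, adjusted p = 0.0322), Ndufa12 (−0.49 ± 0.15, adjusted p = 0.0439), Ndufb11 (−0.48 ± 0.12, adjusted p = 0.0187) and Uqcrq (−0.43 ± 0.14, adjusted p = 0.0460). Uqcrq, a small subunit of complex III, measured 148, 103 and 103 FPKM in Sham, 113, 126 and 137 in IUA, 112, 114 and 122 with control MSC, and 84.8, 93.0 and 99.2 with primed MSC. Its primed MSC libraries lay below those of every other group. No member of complexes II and V was called. Atp5d, among the largest falls in IUA against Sham, stood at 0.40 ± 0.14 (adjusted p = 0.0591), with all primed MSC libraries above all IUA libraries. Accessory subunits had a median of −0.25 with 4 of 57 called and core nuclear subunits a median of −0.09 with 0 of 20 called.

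Base composition moved with this result. The mitochondrially encoded transcripts have a median GC content of 37.1% (31.9 to 41.1%), against 51.3% for the nuclear members and 50.4% for all genes tested. In each library the log2 level of every gene was taken relative to its own mean over the 12 libraries. Across genes, the Spearman correlation of that deviation with GC content was 0.140 to 0.218 with primed MSC. It was −0.145 and −0.179 in IUA replicates 1 and 2 and −0.482 in IUA replicate 3. After each library was corrected for GC content (a lowess curve), 2 mitochondrially encoded genes still fell, mt-Cytb by 0.52 (adjusted p = 0.0159) and mt-Nd2 by 0.40 (adjusted p = 0.0248), and 13 nuclear members fell, where 7.47% of all genes fell and 11.1% rose. The medians became −0.26 for the mitochondrially encoded genes and −0.26 for the nuclear members, so the gap between the genomes, −0.35 before, was 0.00. Since the 13 genes are all poor in GC, GC content and genome of origin cannot be told apart here.

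**Figure D5:**
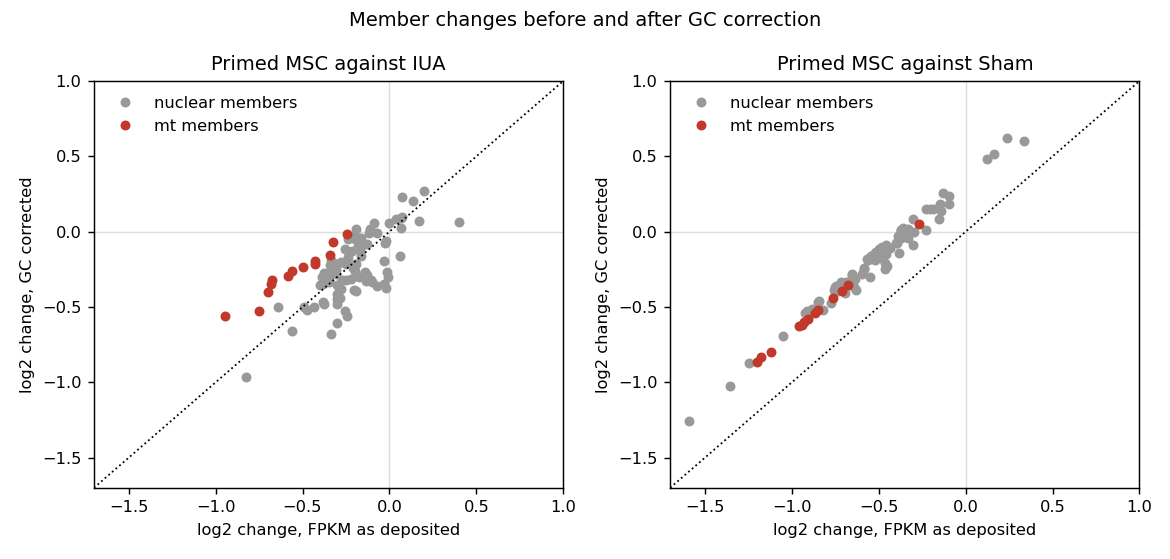
Change of each member before (x axis) and after (y axis) correction for GC content, as differences of log2(FPKM + 1), for primed MSC against IUA and against Sham; red points are mitochondrially encoded and grey points nuclear. Against IUA the median gap between the genomes goes from −0.35 to 0.00, and against Sham from −0.42 to −0.43.

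The count also rested on a few libraries. Without IUA replicate 3, 3 mitochondrially encoded genes and no nuclear member fell, mt-Cytb (adjusted p = 0.0226), mt-Nd2 (adjusted p = 0.0290) and mt-Nd4 (adjusted p = 0.0488). Without primed MSC replicate 1, 2 or 3, the mitochondrially encoded genes that fell numbered 2, 4 and 9, and the nuclear members 0, 0 and 1. Without IUA replicate 1, 10 mitochondrially encoded genes and 26 nuclear members fell, and without IUA replicate 2, 10 and 0. The number of all genes that fell moved as well. Of the 11604 genes tested, 809 fell with all libraries, 401 without IUA replicate 3, and 1050 and 664 without IUA replicate 1 and 2. Without primed MSC replicate 1, 2 or 3, 294, 352 and 508 of all genes fell.

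Primed MSC against control MSC, the comparison of the cytokine priming itself, gave no member past the threshold. limma called 0.0776% of all genes higher and 0.0345% lower. At an unadjusted p under 0.05, 11 of 13 mitochondrially encoded genes and 24 of 90 nuclear members were lower and none was higher, where 6.44% of all genes were lower and 6.45% higher. Median changes were −0.42 and −0.21, against −0.03 for all genes. The smallest adjusted p among the mitochondrially encoded genes was that of mt-Nd3 (−0.82 ± 0.19, adjusted p = 0.127), then mt-Co2 (−0.47 ± 0.11, adjusted p = 0.135). Primed MSC libraries lay below all control MSC libraries for 9 of the 13 and for 47 of the 90, where this held for 12.9% of all genes. On the median-ratio scale, counted after seeing the data, they did so for 12 of 13 and 39 of 90, against 9.98% of all genes. After the GC correction the median changes were −0.29 for the mitochondrially encoded genes and −0.20 for the nuclear members, against 0.00 for all genes. The gap between the genomes went from −0.21 to −0.09.

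The comparisons of control MSC and primed MSC with Sham share the Sham libraries with that of IUA, and their values are set beside it. In control MSC against Sham 7 of 13 mitochondrially encoded genes and 40 of 90 nuclear members fell and 3 nuclear members rose, where 42.7% of all genes fell and 14.1% rose. In primed MSC against Sham 12 of 13 and 70 of 90 fell and none rose, where 45.0% fell and 14.5% rose. Median changes with primed MSC were −0.91 for the mitochondrially encoded genes, −0.49 for the nuclear members and −0.33 for all genes. With control MSC they were −0.43, −0.29 and −0.30. Median-ratio scaling left 0 mitochondrially encoded and 5 nuclear members lower, with 1 and 18 higher, for control MSC (24.2% of all genes lower, 26.2% higher), and 9 and 13 lower, with 0 and 10 higher, for primed MSC (25.1% lower, 27.9% higher).

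After the GC correction 4 mitochondrially encoded and 7 nuclear members fell and 9 nuclear members rose in control MSC against Sham, where 25.1% of all genes fell and 26.0% rose. In primed MSC against Sham the mitochondrially encoded genes stayed lower after that correction: 12 of 13 fell at a median of −0.58, and 20 nuclear members fell and 5 rose at a median of −0.15, where 26.4% of all genes fell and 27.8% rose. mt-Cytb was lower by −1.12 ± 0.15 (adjusted p = 8.36e-05), and by −0.80 after the correction (adjusted p = 2.59e-04). mt-Nd3 stood at −1.20 ± 0.19 (adjusted p = 2.26e-04) and mt-Atp8 at −1.18 ± 0.24 (adjusted p = 0.00132). mt-Co1 was the gene not called, at −0.27 (adjusted p = 0.0525). All 13 had primed MSC libraries below all Sham libraries, which held for 50.6% of all genes.

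Complex by complex, 38 of 45 nuclear genes of complex I fell in primed MSC against Sham, 3 of 4 of complex II, 7 of 8 of complex III, 10 of 16 of complex IV and 12 of 17 of complex V. With control MSC the counts were 24, 2, 3, 5 and 6. Of all genes 45.0% fell with primed MSC and 42.7% with control MSC. Ndufa4 fell in all 3 comparisons with Sham, also under median-ratio scaling and the GC correction: by 1.30 ± 0.19 with control MSC (adjusted p = 1.66e-04, −0.92 under median-ratio scaling) and by 1.59 ± 0.19 with primed MSC (adjusted p = 3.69e-05, −1.17 under median-ratio scaling). Ndufa12 and Ndufb11 stood at −1.25 ± 0.15 (adjusted p = 4.96e-05) and −1.05 ± 0.12 (adjusted p = 3.33e-05) with primed MSC. A near-identical copy of part of Ndufb11, the processed pseudogene Gm6444, lies elsewhere in the genome, so its level is uncertain. Atp5j, coupling factor 6 of the ATP synthase, measured 177, 153 and 133 FPKM in Sham, 99.9, 128 and 124 in IUA, 112, 114 and 115 with control MSC, and 88.1, 86.7 and 100.3 with primed MSC (−0.74 ± 0.12 against Sham, adjusted p = 3.41e-04).

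Members that rose against Sham were few. With control MSC, Cox5a rose by 0.38 ± 0.10 (adjusted p = 0.00816), and its Sham libraries (126 to 141) lay below those with control MSC (162 to 184). Ndufaf8, an assembly factor of complex I, rose by 0.52 ± 0.15 (adjusted p = 0.0112), from 14.5, 10.8 and 9.21 FPKM in Sham to 14.4, 17.7 and 18.03 with control MSC, beside 14.8, 14.3 and 14.9 in IUA and 15.7, 13.4 and 14.6 with primed MSC. Ndufv3, an accessory subunit near the NADH site, rose by 0.32 ± 0.11 (adjusted p = 0.0316), from 52.8, 44.3 and 41.1 in Sham to 50.6, 63.0 and 59.0, beside 49.0, 54.2 and 49.3 in IUA and 47.8, 51.4 and 50.7 with primed MSC. For the last 2 genes the groups overlapped. Under median-ratio scaling all 3 were called higher in each of the comparisons with Sham.

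Genes that serve the chain without matching its symbols are given beside the 45.0% of all genes that fell and the 11.1% that rose in IUA against Sham, at a median of −0.35. Of 41 assembly factors outside the set, 13 fell and 4 rose in IUA against Sham at a median of −0.10. Ttc19, needed for complex III, fell by 0.92 ± 0.19 (adjusted p = 0.00144). Of 32 genes of mitochondrial DNA maintenance and expression 17 fell and none rose (median −0.45), among them Tufm, a translation elongation factor (−0.75 ± 0.13, adjusted p = 5.52e-04). Of 78 mitochondrial ribosomal proteins 24 fell and 2 rose (median −0.16). Of 21 genes of the citric acid cycle and pyruvate dehydrogenase 15 fell and 1 rose (median −0.55), among them Pdha1, a pyruvate dehydrogenase subunit (−0.85 ± 0.11, adjusted p = 1.21e-04), and Ogdh, of the oxoglutarate dehydrogenase complex (−1.24 ± 0.18, adjusted p = 2.63e-04).

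Of 14 regulators of mitochondrial biogenesis 7 fell and none rose in IUA against Sham, at a median of −0.32 and so close to all genes. Ppargc1a, the coactivator PGC-1alpha, fell by 2.03 ± 0.27 (adjusted p = 1.52e-04) and its relative Pprc1 by 1.52 ± 0.23 (adjusted p = 3.21e-04). With primed MSC against IUA, 2 of the 14 regulators rose, Pprc1 (1.15 ± 0.23, adjusted p = 0.00666) and Hif1a, the hypoxia factor (0.49 ± 0.10, adjusted p = 0.00593), and 2 fell, Sirt1 (−0.52, adjusted p = 0.0425) and Myc (−0.41, adjusted p = 0.0446). Of all genes 12.2% rose and 6.97% fell in that comparison.

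In the same comparison of primed MSC with IUA, other mitochondrial groups changed in few members. Of the 32 genes of mitochondrial DNA maintenance and expression, Polg, the mitochondrial DNA polymerase (1.00 ± 0.19, adjusted p = 0.00473), and Fastk (1.19 ± 0.22, adjusted p = 0.00441) rose. Hsd17b10 (−0.64 ± 0.14, adjusted p = 0.00924) and Trmt10c, parts of the enzyme that cuts mitochondrial tRNAs from the precursors, fell. Mitochondrial ribosomal proteins fell in 6 of 78 cases and rose in none, and assembly factors outside the set fell in 5 of 41 and rose in 1, where 6.97% of all genes fell and 12.2% rose. Carriers and uncouplers gave 1 rise in 10, that of Ucp2 (0.62 ± 0.12, adjusted p = 0.00484). In control MSC against IUA and in primed against control MSC none of these lists had a member past the threshold.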

How the data were processed

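Poly(A)-selected RNA of 12 libraries was measured in 4 groups of 3, with groups taken from the labels. The values are the FPKM deposited by the authors. The submitters' processing notes name DESeq2, fastp, HISAT2, RSEM and StringTie, with mm10 as the build. Their versions and roles are not given in the sources used here. Without a known depth, count models and counting intervals were left out.

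The 11604 genes that reached 1 FPKM in 3 or more libraries were fitted on the log2(FPKM + 1) scale with limma 3.58.1 under R 4.3.3 (empirical Bayes with a variance trend, 1 mean per group, all 12 libraries together). All 6 comparisons were drawn, two-sided, with Benjamini-Hochberg adjustment over all genes tested and a threshold of 0.05. For 27 genes the symbol had turned into a date and was restored. Transcript GC content and length came from GENCODE, promoters from RefSeq and near copies from BLAST 2.17.0. The fit was tested on simulated data.

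Alternatives were pseudocounts of 0.1 and 0.5, no filter, FPKM of at least 5, TPM with and without the mitochondrially encoded genes, median-ratio scaling, the compared groups alone, a replicate block, GC and length corrections (lowess span 0.3) and leaving out each library. The members, lists and alternatives were chosen with earlier results of these data known. Every member could be named, though not all that this rule gives are reported here. Values in every library are given for the mitochondrially encoded genes, core subunits, isoforms and the 2 members of smallest p per complex, comparison and direction, and for each pathway list up to 4 genes of smallest p could be named.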

Additional observations from a re-analysis of the deposited data

How the results depend on the processing

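Counts against Sham depended most on scaling. Median-ratio scaling gave, in IUA, 1 mitochondrially encoded gene higher and 0 lower and 14 nuclear members higher and 3 lower; with control MSC, 1 and 0, and 18 and 5; with primed MSC, 10 nuclear higher and 13 lower. By construction it removes the shift of the typical gene. TPM, with or without the mitochondrially encoded genes in the total, gave 10 mitochondrially encoded genes lower in IUA and 11 with control MSC, and 0 nuclear members higher in IUA. Of all 11604 genes, TPM with them in the total gave 6118 lower in IUA and 5711 with control MSC. Without TPM these were 5226 and 4960. With the mitochondrially encoded genes left out of the total they were 6204 and 5836. The GC correction gave 13 nuclear members higher and 5 lower in IUA, 9 and 7 with control MSC (4 mitochondrially encoded lower), and 5 and 20 with primed MSC. With length added, the nuclear counts were 10 and 9 (8 mitochondrially encoded lower), 8 and 11, and 6 and 22. With the replicate block added to the GC correction they were 12 and 3, 7 and 7 (4 mitochondrially encoded lower), and 5 and 18. Of the 11601 genes with a GC content, length added gave 2631 higher and 2523 lower, 3041 and 2934, and 3265 and 3071. The block added to the GC correction gave 2525 and 2396, 2929 and 2837, and 3099 and 2952. A fit to the compared groups alone gave 24 nuclear members lower in IUA, and 4349 of all 11604 genes.

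For primed MSC against IUA, the compared groups alone gave 6 mitochondrially encoded genes and 0 nuclear members lower, and the GC corrections alone, with length or with the block gave 2, with 13, 12 and 7 nuclear members lower. Nuclear members lower numbered 1 without a filter, 8 at FPKM of at least 5, 2 under either TPM and 1 with the replicate block; those higher numbered 1 under either TPM and median-ratio scaling and 2 with GC and length. Of all genes in primed MSC against IUA, 516 of 11604 were lower in the compared groups alone. The GC settings gave 867, 800 and 673 of 11601 lower, in the order above. Genes lower numbered 563 of 18057 without a filter and 737 of 7766 at FPKM of at least 5. For primed against control MSC the compared groups alone gave 1 and 2 lower, and 57 of all 11604 genes. The share of mitochondrially encoded FPKM in Sham was 3.89% and that of nuclear members with control MSC 1.37% when the total left out the mitochondrially encoded genes.

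Leaving out each library gave, for mitochondrially encoded genes lower, 2 to 8 in IUA against Sham, 4 to 8 with control MSC, 12 to 13 with primed MSC, 2 to 10 in primed MSC against IUA and 0 to 1 in primed against control MSC. Of all 11604 genes, those lower ranged from 4466 to 5105, 4165 to 5256, 4490 to 5454, 294 to 1050 and 0 to 50, in the same order. Nuclear members lower ranged from 23 to 46, 27 to 44, 55 to 74 and 0 to 26, and higher from 0 to 3, 1 to 4, 0 to 2 and 0 to 1, in the same order; both stayed at 0 in primed against control MSC. The mitochondrially encoded shares ranged over 3.70 to 3.80% (Sham), 2.66 to 3.00% (IUA), 2.37 to 2.67% and 1.94 to 2.09%.

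Of the named members called against Sham, those that changed sign did so under median-ratio scaling or a GC correction. In IUA these were Cox4i1 (0.043 with GC, with or without the block), Ndufv2 (0.073, median-ratio) and Uqcrfs1 (0.11 median-ratio, 0.023 with GC, with or without the block). With control MSC they were Ndufv2 (0.071), Uqcrfs1 (0.022) and mt-Nd5 (0.012) under median-ratio scaling, Sdha (0.056 and, with GC, 0.015) and Sdhc (0.069, with GC 0.028, with GC and length 9.17e-04). With primed MSC they were Sdha (0.051, with GC 0.014), Sdhc (0.015), Sdhd (0.061, with GC 0.024, with length 0.030), Uqcrc1 (0.13) and Uqcrfs1 (0.052, with GC 0.013, with length 0.0080). With GC, the replicate block left these values as they were. Members not called are outside this count; of these, Sdhd in IUA went from −0.02 to 0.39 (adjusted p = 0.0125) under median-ratio scaling and 0.32 (adjusted p = 0.0259) with GC. The cause of each was not tested.

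Same-numbered libraries did not deviate together (18 pairs, r from −0.293 to 0.288, 3 over 0.1), so the replicate numbers name libraries only, and the replicate block changed 2 of 85 calls of named members. Depth is unknown, so how far low members such as Cox6b2 are limited by it cannot be given.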

Other observations

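Genes around the chain are given beside the 45.0% of all genes that fell and the 11.1% that rose in IUA against Sham, at a median of −0.35. Of 21 mobile electron carriers and other dehydrogenases that feed the quinone pool, 11 fell and 1 rose in IUA against Sham at a median of −0.44. Etfb, part of the flavoprotein that hands electrons from fatty acid oxidation to the chain, fell by 0.61 ± 0.10 (limma adjusted p = 5.32e-04), and Coq8b, of coenzyme Q synthesis, by 1.23 ± 0.24 (adjusted p = 0.00111). In primed MSC against IUA, 2 of the 21 rose and 1 fell, where 12.2% of all genes rose and 6.97% fell. Gpd2, the mitochondrial glycerol-3-phosphate dehydrogenase, rose by 0.63 ± 0.12 (adjusted p = 0.00487) while Etfa, the partner of Etfb, fell by 0.46 ± 0.10 (adjusted p = 0.00901).

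Of 17 genes of mitochondrial import and shape, 9 fell and none rose in IUA against Sham at a median of −0.47, a share near that of all genes. The fusion genes Mfn1 and Mfn2 fell by 1.22 ± 0.16 (adjusted p = 1.58e-04) and 1.03 ± 0.18 (adjusted p = 7.27e-04), and Phb, a scaffold of the inner membrane, by 0.62 ± 0.09 (adjusted p = 2.60e-04). With primed MSC against IUA, 2 of the 17 rose and 0 fell, where 12.2% of all genes rose and 6.97% fell. Mfn2 rose by 0.69 ± 0.18 (adjusted p = 0.0228) and Tomm40, the import channel, by 0.66 ± 0.20 (adjusted p = 0.0397). Ucp2, an inner membrane carrier of myeloid cells, rose in IUA against Sham by 0.54 ± 0.12 (adjusted p = 0.00202) and again in primed MSC against IUA, whereas the aspartate-glutamate carrier Slc25a13 fell in IUA by 1.44 ± 0.22 (adjusted p = 3.54e-04).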
